A study of Homo sapiens with 4 samples.

Results

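The small nucleolar RNAs (snoRNAs) and small Cajal body RNAs (scaRNAs) of a Burkitt's lymphoma line were followed on arrays at 4 times of a doxycycline course. Their probe sets were those whose only gene symbol starts with SNORD, SNORA or SCARNA, which gave 150 probe sets for 144 symbols among the 28869 probe sets of the deposited table that carries symbols. Of these, 69 were box C/D snoRNAs (SNORD), 63 were box H/ACA snoRNAs (SNORA) and 18 were Cajal body RNAs (SCARNA).

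Box C/D snoRNAs guide the methyltransferase fibrillarin to riboses of ribosomal RNA, and box H/ACA snoRNAs guide the pseudouridine synthase dyskerin. Cajal body RNAs share these boxes and guide the same modifications on the RNAs of the spliceosome. Most human snoRNAs are cut from the introns of host genes, many of which encode ribosomal proteins or, like GAS5 and the SNHG genes, have no known protein product.

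All libraries came from DG75, an established Burkitt's lymphoma line, and from 1 clone of it, AB7, named Bcl6-/-;tetBCL6-HA: BCL6, which represses transcription in germinal centre B cells, has no intact native copy in this clone, which carries BCL6 with an HA tag behind a tetracycline-controlled promoter. A single library was made without doxycycline (0 h). The other 3 came from cells kept in doxycycline at 1 µg/ml for 16, 48 or 96 h, a single library for each time. The series title gives the search for BCL6 target genes as its purpose. No untreated library of a later time was analysed here, so the effects of time and of doxycycline cannot be told apart. Every value is a log2 intensity, every difference is on the log2 scale, and the comparisons of the 3 times with 0 h share the same 0 h library.

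Probe sets with 1 symbol and a mean log2 intensity of at least 5.17, the 40th percentile of such probe sets, were tested, which left 11962. Over all probe sets with 1 symbol the library medians were 5.83 to 5.90. BCL6 itself read 11.10, 10.58, 10.25 and 10.50 in the order of hours, highest in the 0 h library (limma -0.66 ± 0.17 SE, adjusted p = 0.107). The title calls its expression inducible, but the sources used here do not say whether doxycycline turns the tagged copy on or off, and the libraries are named by their labels. Of 6 B cell markers 5 were tested, and PAX5 was higher in the doxycycline libraries (8.16, 8.97, 9.01 and 9.15, limma adjusted p = 0.0355), the only one called. CD79A lay the other way, with 9.64, 9.26, 9.27 and 9.13 (limma -0.42, adjusted p = 0.218). MS4A1, the gene of CD20, lay below the filter at 4.37 to 5.03. The 3 monocyte and 2 erythroid markers lay below the filter, and of 4 T cell markers CD3E and CD3G passed it, CD3E at 7.28 to 7.95. Both fibroblast markers passed it, COL1A1 at 5.82 to 6.225 and COL1A2 at 5.29 to 5.44, and both were lower than at 0 h in all 3 doxycycline libraries without a call. The part of these markers in the values below was not tested.

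Of the 150 members 103 passed the filter, 50 of 69 box C/D, 42 of 63 box H/ACA and 11 of 18 Cajal body RNAs. The filter was set on the mean over all 4 libraries and not on any single time. Just below it lay SNORD105 at 5.10 and SNORA46 at 5.03, and just above it SNORD37 at 5.19 and SNORD77 at 5.21. The classes also differed in a feature the symbols do not state: the genes spanned a median of 74 bases for box C/D, 133 for box H/ACA and 226 for Cajal body RNAs in the RefSeq gene table. Total RNA came from RNeasy minipreps. Whether this preparation kept RNAs of these lengths equally well, and to the same extent in each library, was not tested. The class values below are therefore array readings of the RNA that was kept. SNORA10 had 2 tested probe sets with equal values in every library.

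The median tested box C/D and box H/ACA members were below their 0 h values in all 3 later libraries, and the median Cajal body member was above it. The median difference of the 50 tested box C/D members was -0.27, -0.05 and -0.41 at 16, 48 and 96 h. For the 42 box H/ACA members it was -0.18, -0.07 and -0.20. For the 11 Cajal body members it was 0.16, 0.34 and 0.17. The medians of all tested probe sets lay close to 0, at 0.02, -0.01 and -0.03. Below 0 h were 41 of 50 box C/D members at 16 h, 28 at 48 h and 42 at 96 h, while 46.2%, 51.4% and 54.7% of all tested probe sets were lower. Among Cajal body members 1, 2 and 4 of 11 were lower. Over all 150 members, with no filter, the medians were -0.16, 0.01 and -0.30 for box C/D, -0.09, -0.01 and -0.12 for box H/ACA and 0.08, 0.29 and 0.09 for Cajal body RNAs. No test was made over members of a class. The classes also differed in their hosts. Ribosomal protein genes held 18 tested box C/D, 11 box H/ACA and 0 Cajal body members. Medians there were -0.24, 0.01 and -0.38 for box C/D and -0.32, -0.22 and -0.34 for box H/ACA. Other hosts, outside these, translation factor and non-coding genes, held 10, 18 and 8. In class order their medians were -0.045, 0.03 and 0.01, then -0.073, 0.053 and -0.133, then 0.201, 0.392 and 0.115. The parts of class and host were not tested.

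**Figure D1:**
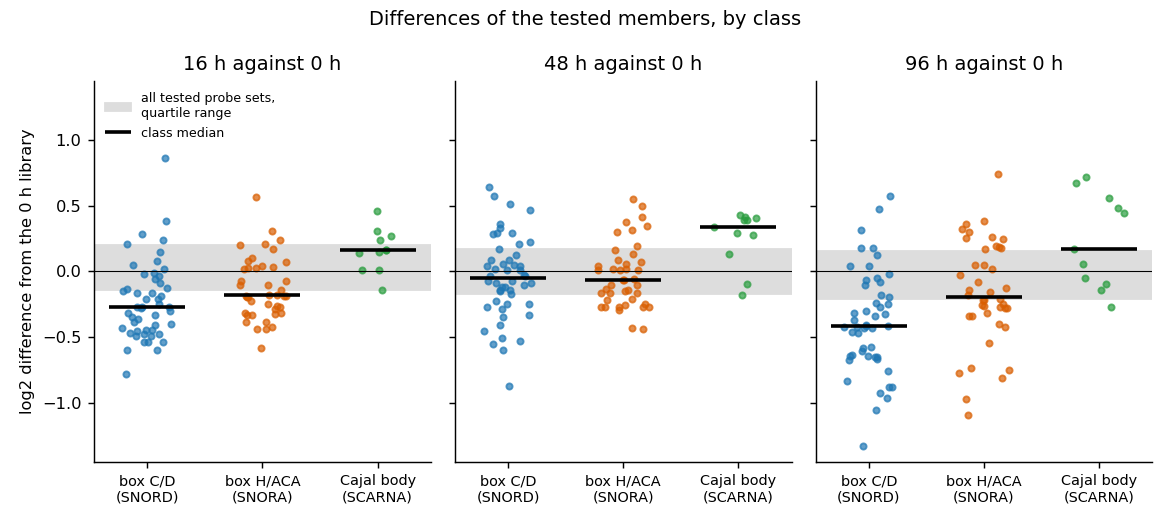
Log2 difference from the 0 h library (y axis) of each tested member at 16, 48 and 96 h, in columns for 50 box C/D, 42 box H/ACA and 11 Cajal body probe sets, with the class median as a bar and the quartile range of all tested probe sets in grey. The box C/D median lies at -0.27, -0.05 and -0.41 and the Cajal body median at 0.16, 0.34 and 0.17.

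Of the 103 tested members, 46 were lower than at 0 h in all 3 doxycycline libraries and 22 were higher in all 3, while each order held for 31.2% of all tested probe sets. By class, 26 of 50 box C/D, 19 of 42 box H/ACA and 1 of 11 Cajal body members were lower in all 3. Higher in all 3 were 5 of 50, 10 of 42 and 7 of 11. At the fold limit of 1.5, 3 members were lower and 1 was higher at 16 h (0.736% and 4.31% of all tested probe sets), and 2 were lower and 1 was higher at 48 h (1.55% and 4.4%). At 96 h 22 members were lower and 3 were higher (3.53% and 5.33%). Of those 22, 16 were box C/D and 6 were box H/ACA. Without a fold limit 30 of 103 members were higher at 96 h (45.3% of all tested probe sets).

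No member passed the test that set the doxycycline libraries together against 0 h (limma, Benjamini-Hochberg adjusted p under 0.05 over all tested probe sets), in which 1.24% of all tested probe sets were called, 1.16% higher and 0.0752% lower. At an unadjusted limma p under 0.05 there were 21 of 103 members, 16 lower and 5 higher, and 15.2% of all tested probe sets, 5.1% lower and 10.1% higher. The smallest adjusted p of a member was 0.0857, for SNORD75. The limma fit has 2 residual degrees of freedom, and its spread is that between libraries of different times.

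Of the 46 members lower in all 3 doxycycline libraries, 18 lay in non-coding host genes or TAF1D, 15 in ribosomal protein genes and 8 in other hosts, out of 29, 29 and 36 tested members. Lower in all 3 were 31.2% of all tested probe sets. GAS5, a growth arrest-specific RNA whose introns carry a series of box C/D snoRNAs, held 6 tested members, and all 6 were lower in all 3 doxycycline libraries, with medians of -0.47, -0.34 and -0.82. SNORD75, a box C/D snoRNA of GAS5, read 9.77, 8.99, 9.17 and 8.71 in the libraries of 0, 16, 48 and 96 h. All 3 later libraries lay below the 0 h library, by 1.72, 1.52 and 2.08 times, and the limma difference was -0.81 ± 0.19 (SE), with an adjusted p of 0.0857. It was called when the 48 h library was left out (-0.92) or the 96 h library (-0.69). With the other deposited values and under quantile, loess and median scaling, its limma adjusted p was 0.0868 to 0.113.

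The other GAS5 members were described after their values were seen. SNORD44 read 9.94, 9.49, 9.43 and 9.18 in the order of hours, and SNORD74 read 10.11, 9.64, 9.78 and 9.23. SNORD78 read 10.23, 9.76, 9.89 and 9.59, and SNORD79 read 8.77, 8.23, 8.52 and 8.34. SNORD77, near the filter, read 5.53, 5.26, 5.38 and 4.65. In 5 of the 6 members of this host the 96 h library was the lowest, and in SNORD79 it was the 16 h library.

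SNHG1 and SNHG5 hold further box C/D members. SNHG5 was first described as the U50 host gene, at a chromosomal breakpoint joined to BCL6 in a B cell lymphoma. Its SNORD50B read 8.462, 8.073, 8.004 and 7.133, so that the 96 h library was 2.51 times lower than the 0 h library (limma -0.73 ± 0.33 SE, adjusted p = 0.342). Without the 96 h library the difference was -0.42. Its neighbour SNORD50A read 9.34, 9.02, 8.93 and 8.67. In both the values stood in falling order over the hours, with 1 library behind each. In SNHG1, SNORD30 read 10.11, 9.62, 9.55 and 9.18 (limma -0.66 ± 0.19 SE, adjusted p = 0.152), and SNORD28 read 10.57, 10.09, 10.30 and 10.15. All later libraries of both lay below the 0 h library.

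Probe sets that pair a snoRNA symbol with its host's symbol fall outside the selection and were looked up after the values above were seen. Of 125 probe sets that pair a symbol of these classes with another symbol, only those with GAS5, SNHG1 or C1orf79 were summarised. C1orf79 is the older symbol of SNHG12. The summarised ones were lower in all 3 doxycycline libraries in 3 of 3 cases with GAS5, 6 of 6 with SNHG1 and 3 of 3 with C1orf79. This held for 31.2% of all tested probe sets, which have 1 symbol each and passed the filter. These hosts were picked with values known and the other pairs were not summarised, so the counts give no separate support. SNORD26, paired with SNHG1, read 11.33, 10.54, 10.59 and 10.51. The SNHG12 set, made of the box H/ACA members SNORA61, SNORA44 and SNORA16A, had medians of -0.51, -0.33 and -0.86. These probe sets were not tested.

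Members in other non-coding hosts were less uniform. SNORD12C, in ZFAS1, read 8.44, 7.84, 7.91 and 7.60 (limma -0.66 ± 0.16 SE, adjusted p = 0.105), with every later library below the 0 h library. SNORA74A, the box H/ACA snoRNA first named U19, lies in SNHG4 and read 7.41, 6.83, 7.14 and 6.32 (limma -0.65 ± 0.27 SE, adjusted p = 0.306). Without the 48 h library it was called (-0.84), and without the 96 h library its difference was -0.43. With the other deposited values and under quantile, loess and median scaling, its limma adjusted p was 0.243 to 0.304. SNORD60 in SNHG19 was higher, with 7.33, 7.71, 7.90 and 7.37. SNORD1A in SNHG16 read 6.23, 5.69, 5.95 and 5.27, whereas SNORD49A and SNORD49B in SNHG29 differed from 0 h by between -0.09 and 0.29. In all, 14 of 18 box C/D members in non-coding hosts or TAF1D were lower in all 3 libraries, with medians of -0.42, -0.28 and -0.66. GAS5 held 6 of these 14 and SNHG1 held 2. Of the box H/ACA members there 3 of 8 were lower in all 3, with medians of -0.04, -0.03 and -0.06. Lower in all 3 were 31.2% of all tested probe sets. Without the GAS5 and SNHG1 members the box C/D class had medians of -0.21, 0.01 and -0.33.

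**Figure D2:**
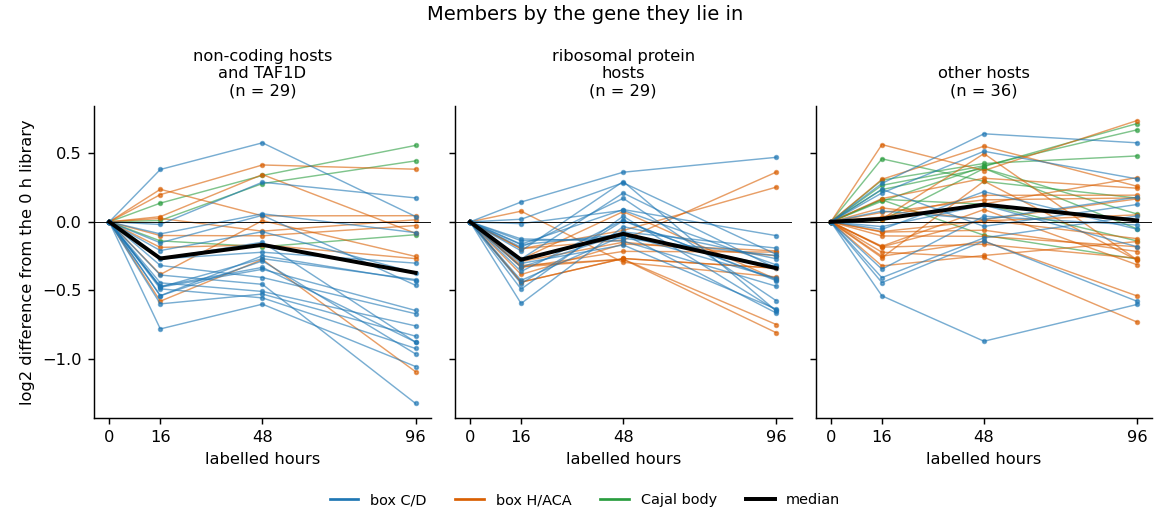
Log2 difference from the 0 h library (y axis) against labelled hours (x axis) for each tested member, in panels for 29 members in non-coding hosts and TAF1D, 29 in ribosomal protein genes and 36 in other hosts, coloured by class with the panel median in black. The medians at 96 h are -0.37, -0.34 and 0.01. The median runs lower, higher, lower in both the non-coding and the ribosomal protein panel.

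The start of several hosts is shown because ribosomal protein genes and some snoRNA hosts are known to begin their transcripts with a run of pyrimidines. The windows, from RefSeq in build GRCh38.p14, run from 40 bases before the annotated start to 20 bases after it, 5′ to 3′ on the strand of the gene. Capitals mark TATAA where it lies 40 to 16 bases before the start and CTTT where it lies in the first 6 bases of the transcript. The windows lie at chr1:173869026-173869085 (minus strand) for GAS5, chr11:62855866-62855925 (minus) for SNHG1, chr6:85678714-85678773 (minus) for SNHG5, chr20:49278602-49278661 (plus) for ZFAS1 and chr18:49813983-49814042 (plus) for SNHG22, which holds SCARNA17.
GAS5: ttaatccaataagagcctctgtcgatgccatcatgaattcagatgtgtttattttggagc
SNHG1: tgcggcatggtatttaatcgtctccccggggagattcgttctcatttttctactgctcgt
SNHG5: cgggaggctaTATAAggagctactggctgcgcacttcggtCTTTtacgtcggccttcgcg
ZFAS1: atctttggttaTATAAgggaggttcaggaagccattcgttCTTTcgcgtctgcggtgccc
SNHG22: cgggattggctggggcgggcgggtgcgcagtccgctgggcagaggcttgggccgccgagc

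Both motifs were chosen after these sequences had been read, and only the strand of the gene was searched. CTTT in the first 6 bases was found in 7 of 10 ribosomal protein hosts with an entry, 5 of 15 non-coding hosts, 6 of 27 other hosts and 1 of 3 translation factor hosts, and in 2.65% of all 35116 promoters of the table. TATAA was found in 4 of 15 non-coding hosts, 0 of 10 ribosomal protein hosts, 1 of 27 other hosts and 3 of 3 translation factor hosts, and in 3.91% of all promoters. The windows of GAS5, SNHG1 and SNHG22 hold neither motif at these places, and those of SNHG5 and ZFAS1 hold both. SNHG5 and ZFAS1 are also among the non-coding hosts counted. Only the exact CTTT at the annotated start was scored, so a host without it may still begin with other pyrimidines. The SNHG1 window reads ctcatttttc from its start, mostly pyrimidines. The members in GAS5 and SNHG1 were lower in all 3 doxycycline libraries, as were those in SNHG5 and ZFAS1, and those in SNHG22 were higher.

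Most members in ribosomal protein genes had the same course. They were lower at 16 h than at 0 h in 26 of 29, higher at 48 h than at 16 h in 27 of 29, and lower at 96 h than at 48 h in 26 of 29, where 46.2%, 44.6% and 55.8% of all tested probe sets did so. The whole order lower, higher, lower held for 23 of 29 of these members and for 15% of all tested probe sets. It also held for 16 of 29 members in non-coding hosts or TAF1D and for 10 of 36 in other hosts. By class it held for 33 of 50 box C/D, 17 of 42 box H/ACA and 0 of 11 Cajal body members. In ribosomal protein, non-coding and other hosts it held for 15 of 18, 13 of 18 and 4 of 10 box C/D members. For box H/ACA members the counts were 8 of 11, 3 of 8 and 6 of 18. The steps from 16 to 48 h and from 48 to 96 h do not use the 0 h library, but both use the 48 h library. Over all 103 members, 77 were higher and 25 lower at 48 h than at 16 h (44.6% and 55.3% of all tested probe sets), with 0 of them past the fold limit in either direction (0.326% and 0.761%). At 96 h against 48 h, 26 were higher and 77 lower (44.1% and 55.8%), and at the fold limit 9 members were lower and 0 were higher (0.594% and 0.577%). Of these 9, 7 were box C/D and 2 box H/ACA.

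**Figure D3:**
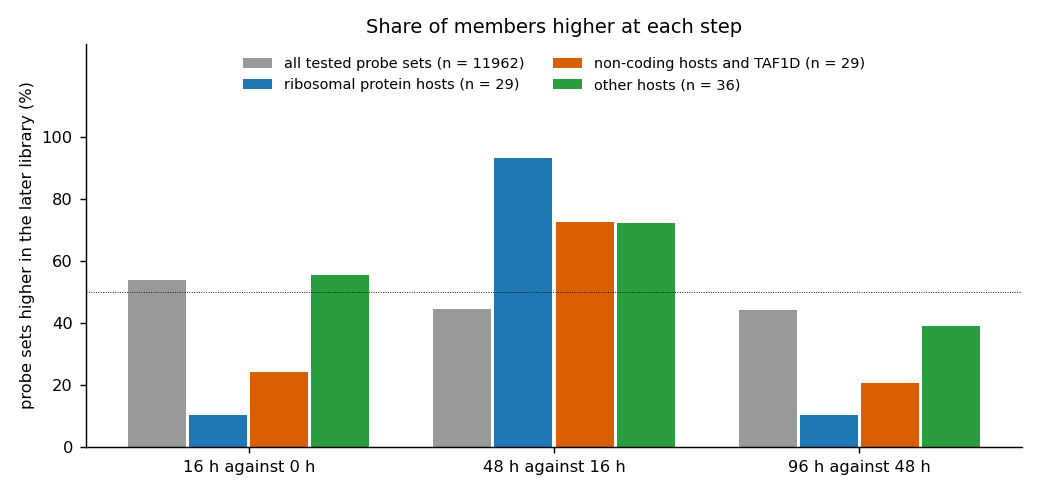
Percent of tested probe sets that were higher in the later of 2 libraries (y axis, from 0) at each step, for all 11962 tested probe sets, 29 members in ribosomal protein genes, 29 in non-coding hosts and TAF1D, and 36 in other hosts. Of the members in ribosomal protein genes, 3 of 29 were higher at 16 h than at 0 h, 27 of 29 at 48 h than at 16 h and 3 of 29 at 96 h than at 48 h, beside 53.8%, 44.6% and 44.1% of all tested probe sets.

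The 4 box C/D members in RPL23A show this course. SNORD42A read 6.35, 5.75, 6.31 and 6.08, and SNORD42B read 8.40, 7.95, 8.41 and 7.98. SNORD4A read 6.72, 6.29, 6.62 and 6.40, and SNORD4B read 6.60, 6.59, 6.69 and 6.29. In SNORD42A, SNORD42B and SNORD4A the 16 h library was the lowest and in SNORD4B the 96 h library was, while the 48 h library differed from 0 h by -0.10 to 0.08 in the 4. These 4 were described after their values were seen, and none had a limma adjusted p under 0.475.

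The lowest differences at 96 h among members in ribosomal protein genes came from box H/ACA members. SNORA45 (now SNORA3B), in RPL27A, read 7.74, 7.41, 7.46 and 6.93, and the 96 h library was 1.75 times lower than the 0 h library (limma -0.47 ± 0.21 SE, adjusted p = 0.351). SNORA6, in RPSA, read 8.16, 7.84, 7.88 and 7.41, or 1.68 times lower at 96 h (limma -0.45 ± 0.20 SE, adjusted p = 0.345). In both members the 96 h library stood below the other 3.

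Not every member in a ribosomal protein gene was below 0 h at 96 h. SNORA21, a box H/ACA snoRNA in RPL23, read 9.59, 9.39, 9.52 and 9.84, below 0 h at 16 and 48 h and above it at 96 h. Its limma difference was -0.00 ± 0.19 (SE), with an adjusted p of 0.998.

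The ribosomal protein messenger RNAs and the snoRNAs within their genes mostly lay on opposite sides of 0 h at 96 h. Of 17 ribosomal protein genes with a tested member 11 had a tested probe set of their own, and the 11 host genes had median differences of 0.05, 0.12 and 0.23, above 0 h in 9, 11 and 11 of 11. The members were summarised by a median within each host, and the medians of these over the 11 hosts were -0.30, -0.13 and -0.42. The median of a host's members lay below the host in 11 of 11 genes at 16 h, 10 of 11 at 48 h and 11 of 11 at 96 h. With each library centred on its median the host median at 16 h was -0.06 and the host was above 0 h in 4 of 11. At 96 h the hosts were above 0 h in 9 to 11 of 11 under the other scalings tried. No host gene was called by limma. Host and member were read by different probe sets, and whether a member's probe set also reads intron RNA of its host was not tested. The part of RNA length and the RNA preparation in these gaps was not tested either.

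RPS20 and its SNORD54 gave 1 of the wider gaps. RPS20, a protein of the small ribosomal subunit, read 11.96, 12.18, 12.33 and 12.33 (limma 0.31 ± 0.15 SE, adjusted p = 0.355). SNORD54 read 6.97, 6.67, 6.80 and 6.34 (limma -0.37 ± 0.19 SE, adjusted p = 0.415). The host was higher and the snoRNA lower than at 0 h in all 3 later libraries, without a call for either. RPS3A, another protein of that subunit, read 12.21, 12.43, 12.56 and 12.65, while its SNORD73A read 7.41, 7.24, 7.32 and 6.995.

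**Figure D4:**
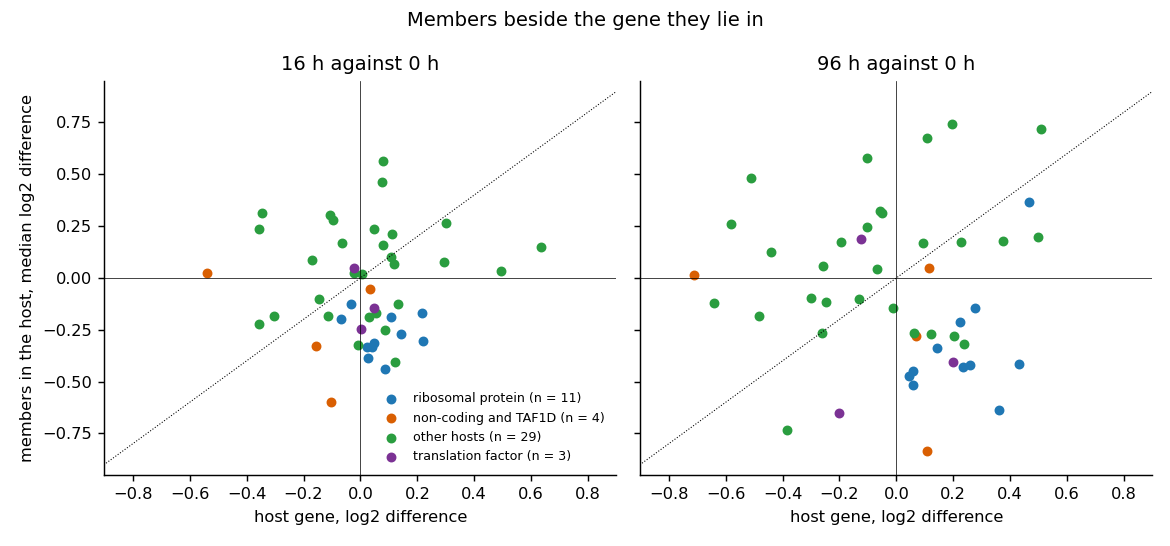
Median log2 difference from 0 h of the tested members in a host (y axis) against the difference of the host gene itself (x axis) at 16 h and 96 h, for 47 host genes with a tested probe set. The dotted line marks equal differences, and all 11 ribosomal protein genes lie below it at both times.

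Outside the ribosomal protein genes the pair could differ either way. ZFAS1 RNA read 10.68, 10.57, 10.75 and 10.78 (limma 0.03 ± 0.15 SE, adjusted p = 0.958), while SNORD12C within it was lower at every later time. SNHG17 RNA read 10.03, 9.50, 9.48 and 9.32 (limma -0.60 ± 0.15 SE, adjusted p = 0.101), while the median differences of its SNORA71A, SNORA71C and SNORA71D were 0.02, -0.07 and 0.01. DKC1, the gene of dyskerin, read 10.48, 10.13, 10.07 and 9.89 (limma -0.44 ± 0.15 SE, adjusted p = 0.221), while SNORA56 within it read 5.39, 5.71, 5.95 and 5.66. ZFAS1 and SNHG17 are non-coding hosts, and DKC1 is among the other hosts. Of 29 other hosts with a tested probe set, the median of the members lay below the host in 13, 10 and 10 at the 3 times.

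Of the 22 members higher in all 3 doxycycline libraries, 15 lay in these other hosts, which held 36 tested members. That is 41.7% of them, beside 31.2% of all tested probe sets, and 8 of the 36 were lower in all 3. Higher than at 0 h were 20, 25 and 18 of the 36 at 16, 48 and 96 h (53.8%, 48.5% and 45.3% of all tested probe sets). The median of the 36 was 0.02, 0.13 and 0.01, and with each library centred on its median -0.09, 0.06 and -0.02. SNORA50 (now SNORA50A), in CNOT1, read 5.999, 6.57, 6.37 and 6.74, with all 3 later libraries above 0 h (limma 0.56 ± 0.17 SE, adjusted p = 0.174). SNORD41, in TNPO2, read 6.39, 6.67, 7.03 and 6.96 (limma 0.50 ± 0.18 SE, adjusted p = 0.223). SNORD8, in CHD8, read 6.10, 6.31, 6.62 and 6.41, and SNORA38, in PRRC2A, read 5.75, 5.93, 6.075 and 6.002. SNORD61 in RBMX was instead lower at each later time and read 5.91, 5.37, 5.03 and 5.30, lowest at 48 h (limma -0.67 ± 0.17 SE, adjusted p = 0.105). SNORA14B in TOMM20 read 6.60, 6.38, 6.34 and 5.86, lowest at 96 h.

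Some members lie in the spans of more than 1 gene and have no single host here. SNORA13 read 7.03, 6.71, 6.60 and 6.06 (limma -0.57 ± 0.24 SE, adjusted p = 0.307), and SNORA55 read 6.94, 6.52, 6.50 and 6.17 (limma -0.55 ± 0.18 SE, adjusted p = 0.197). Both were box H/ACA snoRNAs, and both stood in falling order over the hours. Falling order over all 4 libraries held for 9 of 103 members and 9.85% of all tested probe sets. SNORA22, also of the box H/ACA class, read 8.33, 8.54, 8.39 and 8.64, above 0 h at each later time.

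Of the Cajal body RNAs, SCARNA9, SCARNA10, SCARNA7 and SCARNA17 had their highest values at 96 h, and none was called. SCARNA9, a guide for the U2 RNA of the spliceosome, read 8.91, 9.06, 9.31 and 9.63, and its 96 h library was 1.65 times above the 0 h library (limma 0.42 ± 0.21 SE, adjusted p = 0.392). SCARNA10, a guide for U5 that carries both kinds of box, read 7.23, 7.50, 7.64 and 7.91, or 1.59 times higher at 96 h (limma 0.45 ± 0.18 SE, adjusted p = 0.285). SCARNA7, a box C/D guide for U1, read 8.77, 9.08, 9.20 and 9.25 (limma 0.40 ± 0.15 SE, adjusted p = 0.238). In all 3 the values stood in the order of the hours. Both probe sets of SCARNA17 did so too, with 9.02, 9.03, 9.30 and 9.47 in one and 8.77, 8.91, 9.11 and 9.33 in the other. This order held for 5 of 11 Cajal body members and for 6.91% of all tested probe sets, and both SCARNA17 probe sets read the same RNA.

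The remaining Cajal body members stood nearer to 0 h at 96 h. SCARNA5 and SCARNA6, both in ATG16L1, read 6.42, 6.43, 6.81 and 6.37, and 6.54, 6.70, 6.66 and 6.39. SCARNA8 read 5.92, 6.16, 6.31 and 5.98, and SCARNA22 read 5.91, 6.37, 6.21 and 6.09. SCARNA12 read 9.12, 9.28, 9.02 and 8.85, and SCARNA16 read 7.54, 7.40, 7.35 and 7.44. SCARNA16 was the single tested Cajal body member below 0 h at all 3 times. A second SCARNA9 probe set, below the filter, read 4.29, 4.96, 5.18 and 4.28 and did not follow the first.

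**Figure D5:**
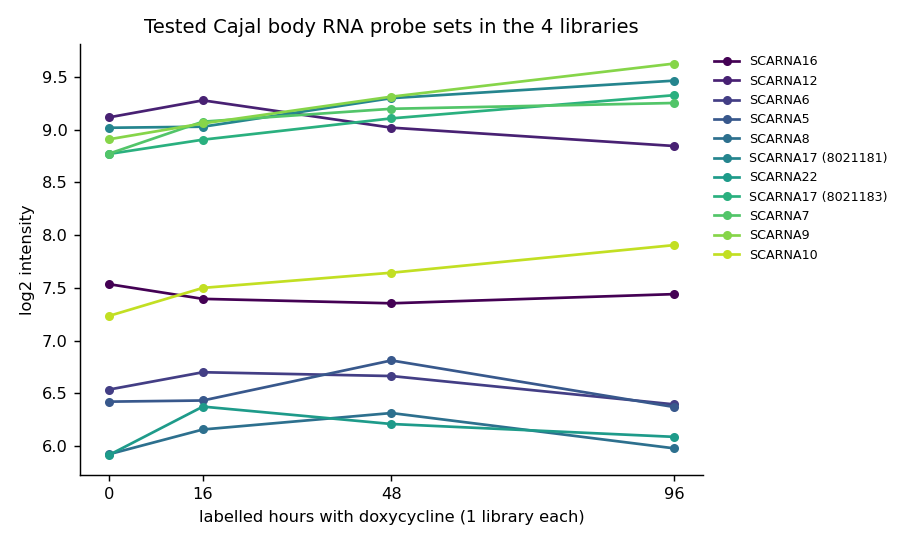
Log2 intensity (y axis) of the 11 tested Cajal body probe sets against labelled hours (x axis), 1 library per time. SCARNA9, SCARNA10, SCARNA7 and both SCARNA17 probe sets are highest in the 96 h library, and SCARNA12 is lowest there; levels of different probe sets are not comparable.

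The host genes of these Cajal body RNAs did not share 1 direction. CEP295, the centriole gene that holds SCARNA9, read 5.57, 6.20, 6.24 and 6.08 (limma 0.60 ± 0.15 SE, adjusted p = 0.0963), higher than at 0 h throughout. KPNA4, an importin gene that holds SCARNA7, read 9.64, 9.53, 9.11 and 9.13, lower than at 0 h (limma -0.38 ± 0.19 SE, adjusted p = 0.395). NCAPD2, the condensin gene that holds SCARNA10, read 10.00, 10.30, 9.96 and 10.11.

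SNORD13 and SNORA73A have roles outside common guiding, and SNORD13 had the largest difference of any tested member at 16 h. SNORD13, or U13, has its own promoter and guides acetylation of small-subunit ribosomal RNA. It read 8.03, 8.89, 8.50 and 7.96, 1.82 times above 0 h at 16 h and 1.05 times below it at 96 h (limma 0.42 ± 0.30 SE, adjusted p = 0.564). The difference was 0.20 without the 16 h library and 0.67 without the 96 h library (limma adjusted p = 0.0769). It was the single tested member at least 1.5 times higher at 16 h. SNORA73A, known as U17 or E1 and needed for ribosomal RNA cleavage, lies in SNHG3 and read 11.41, 11.61, 11.82 and 11.79 (limma 0.33 ± 0.15 SE, adjusted p = 0.351). Its 3 later libraries were all above the 0 h library.

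Between 16 h and 96 h, 4 tested members were at least 1.5 times lower at 96 h and none was higher (1.91% and 1.3% of all tested probe sets). They were SNORD50B with -0.94, SNORD13 with -0.93, SNORA13 with -0.65 and SNORD77 with -0.61. Without a fold limit 59 of 103 were lower (58.8%) and 44 higher (41.1%). SNORD45C, in RABGGTB, read 9.03, 8.62, 8.91 and 9.07, lowest at 16 h. SNORA48, in the translation factor gene EIF4A1, read 9.29, 9.15, 9.31 and 9.48.

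The 47 members below the filter had median differences of -0.02, 0.07 and -0.00. The imprinted clusters SNORD113, SNORD114 and SNORD115, which are known for expression in brain, had 8 members with values of 2.87 to 3.97, none above the filter, and differences of -0.26 to 0.17. Of other small RNA genes, chosen after the values were seen, 9 were tested and had medians of -0.04, 0.01 and 0.04, with a range of -0.74 to 0.46.

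The proteins that bind and build these RNAs were listed as 32 genes, of which 30 were tested and 0 were called by limma (1.24% of all tested probe sets), while 4 had an unadjusted p under 0.05 (15.2%). Their medians were -0.06, -0.08 and -0.16, and 16 of 30 were lower in all 3 doxycycline libraries (31.2%). NOP58, a core protein of box C/D particles, read 10.81, 10.46, 10.35 and 10.21 (limma -0.47 ± 0.15 SE, adjusted p = 0.201). FBL, the gene of fibrillarin, read 10.83, 10.76, 10.86 and 10.80, with the later libraries on both sides of 0 h. DBR1, which opens intron lariats so that snoRNAs can be trimmed from them, read 7.90, 7.50, 7.32 and 7.15 (limma -0.58 ± 0.17 SE, adjusted p = 0.156). TGS1, which hypermethylates the caps of small RNAs, read 8.22, 7.91, 7.89 and 7.76 (limma -0.37 ± 0.14 SE, adjusted p = 0.276). NOP58, DBR1, TGS1, DKC1 and the assembly factor NUFIP1 (mean difference -0.40) each read lower at every later time than at 0 h. None passed the threshold. Of the 30 genes, 23 had a mean difference below 0. The largest mean differences above 0 were those of GEMIN2 (0.23), RUVBL1 (0.135) and GEMIN5 (0.12).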

How the data were processed

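The authors deposited log2 intensity values of 4 one-colour arrays in 2 tables, and the scale was read from the values. Per the labels' protocols, total RNA from RNeasy minipreps was amplified with random hexamers, turned into sense-strand cDNA, labelled with biotin and stained with streptavidin-phycoerythrin. For the normalization, the software and the build, the sources used here give nothing. Values came from the table of 33297 probe sets, and symbols from the other, which also served as an alternative. Arrays give no read depth, and their number limits the precision.

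Each time was set against 0 h without a test. The 3 doxycycline libraries were set against the 0 h library with limma 3.58.1 in R 4.3.3 (lmFit and eBayes, two-sided, Benjamini-Hochberg over 11962 probe sets, threshold 0.05). No label tells whether the libraries were separate cultures, and the p-values rest only on the spread seen here, which may be technical. In simulated data on 11962 probe sets, 200 of them changed, 42% of log2 changes of 0.585 passed, as did 100% of those of 1, 1.5 and 2, beside 18 false calls. The changed probe sets were drawn at random from all tested ones, with independent noise. The shares for members, some with a wide spread such as SNORD50B (SE 0.325), were not computed.

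All 150 members matched the RefSeq gene table of GRCh38.p14 by accession, and 5 symbols were out of date. Hosts were genes whose span in that table holds the member. The table gives no strand, so strand was not used, which departs from the plan. Where several spans held a member, a SNHG or ribosomal protein gene was taken, and otherwise none was named (5 members, with 2 more in no span). TAF1D was grouped with non-coding hosts, and RACK1 and the pseudogene RPL32P3 with other hosts. A host's value is its probe set with the highest mean. Some hosts are counted but not reported singly here. Members, lists and hosts were chosen with earlier results of these data known. Members named by rule were the 5 per class and direction with the largest mean difference, the 3 with the largest difference between 96 h and 16 h, every tested Cajal body RNA, and snoRNAs of ribosomal RNA processing, 38 in all. Others are said to be chosen after their values were seen. Of the promoter table, entries with a host's symbol were used.

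Alternatives were the second table, quantile, cyclic loess and median scaling, no filter, 1 probe set per gene, fold limits of 1.3 and 2, and leaving out each doxycycline library.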

Additional observations from a re-analysis of the deposited data

Results flagged for a closer look

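SNORD13 differed from 0 h in opposite directions at different times. Its difference was 0.86 at 16 h and 0.47 at 48 h, and -0.07 at 96 h, where only members at least 1.5 times different at 1 time or more were looked at. The difference between the times rests on 1 library each and was not tested.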

How the results depend on the processing

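No paired analysis was possible because each time has 1 library and the labels carry no replicate numbers. Members past the limma threshold ranged from 0 to 2 when 1 doxycycline library was left out (SNORD75 and SNORA74A without 48 h, SNORD75 without 96 h), with 1 residual degree of freedom, and were 0 under every other setting. Over all probe sets limma called 148, and 93 in the second table, 29 with quantile, 70 with loess and 35 with median scaling, 47 with no filter, and 279 to 356 with 1 library left out. Centring each library on its median moved the median of all tested probe sets to -0.09, -0.08 and -0.06, and with it the medians at 16 h of Cajal body RNAs (0.054) and box H/ACA snoRNAs (-0.29) and the mean difference of members in other hosts (-0.003). With no filter the box H/ACA median was -0.088 at 16 h and -0.12 at 96 h, and the mean Cajal body difference 0.12. Signs and counts by host group under each scaling, and leaving out the GAS5 and SNHG1 members, were added after seeing the data. The counts at the fold limit were the least stable. At a limit of 1.3 the members higher and lower were 4 and 24 at 16 h, 12 and 9 at 48 h, 9 and 36 at 96 h, and 7 and 17 for 96 h against 16 h. At a limit of 2 they were 0 in each, except 3 lower at 96 h. With loess, 2 were higher at 16 h, 2 at 48 h, 5 at 96 h and 4 for 96 h against 16 h. With median centring, 10 were lower at 16 h, 0 higher and 4 lower at 48 h, and 2 higher and 2 lower for 96 h against 16 h. With quantile scaling, 2 were higher and 1 lower at 48 h and 2 higher for 96 h against 16 h. In the second table, 1 was lower at 16 h, 0 were higher at 48 h and 2 were lower for 96 h against 16 h. With no filter, 2 were higher at 16 h, 2 at 48 h and 1 for 96 h against 16 h. Members with mean differences near 0 turned sign: SNORA21 (0.003 with loess, 0.012 with quantile scaling, -0.13 to 0.095 with 1 library left out), SNORA48 (-0.050 centred, -0.066 to 0.099 with 1 left out), SNORA68 (-0.057 centred, -0.164 to 0.116 with 1 left out), SCARNA6 (-0.017 centred, -0.005 to 0.147 with 1 left out), SCARNA5 (-0.020 to 0.201) and SCARNA12 (-0.185 to 0.032). The cause was not tested. The other 146 summary values and 251 values of single members kept their direction and side of the threshold, or stayed within the spread set for them.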
